A study of Mus musculus with 15 samples.

Results

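CG-rich promoters were defined as the transcription start sites (TSSs) of autosomal protein-coding genes of mm10 (GENCODE M21, gene start) that had at least 50 CG dinucleotides within 500 bp on each side together. The rule used only the sequence and was met by 9222 of 20807 TSSs, and the 11585 other TSSs served for comparison. Each CG-rich promoter was described by a core (the 500 bp on each side of the TSS), by shoulders (1 to 3 kb upstream and downstream) and by a profile over 5 kb on each side. The DNA came from E14TG2a cells, a mouse embryonic stem cell (mESC) line that was grown on gelatin with LIF and serum. 5hmCG coverage was measured by hmTOP-seq, in which the glucosyltransferase BGT places an azide-bearing glucose on 5hmC, an oligonucleotide is clicked to it and polymerase primes from that oligonucleotide, starting from 500, 50 or 5 ng of DNA in 2 technical replicates per amount. Control libraries without BGT were made in 2 replicates for each amount, and uTOP-seq, which reads unmodified CGs (uCGs), was carried out in 3 replicates at 300 ng. All libraries are technical replicates of DNA from 1 cell line, so that p-values measure the spread between libraries and not between cultures.

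Vertebrate promoters with many CGs usually overlap CG islands, which stay free of cytosine methylation in most cells whether or not the gene is active. 5hmC is made by TET dioxygenases from 5-methylcytosine, so that it needs a methylated substrate, and proteins with a CXXC domain bind unmethylated CGs in such islands. Genes of the germline are a known exception, since many of them have a CG-rich promoter that is methylated in somatic cells, and in mESCs some of these are TET targets.

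Coverage of a CG was expressed as a level, the reads per CG divided by the mean reads per CG of the same library over all 20383623 autosomal CGs, so that a level of 1 is the autosomal mean. The hmTOP-seq libraries held between 14884939 and 32502791 reads, the controls between 3409 and 10072 reads and the uTOP-seq libraries between 20120568 and 28412885 reads. At the median of 74 CGs in a core, 3 reads corresponded to a level of 0.0257 in replicate 1 and 0.0262 in replicate 2 at 500 ng, so that lower levels of single promoters were not resolved. These limits cover counting error only, since duplicates were removed without molecular identifiers.

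The 6 promoters below are shown for what the profiles turned on, as the 300 bases of GRCm38 from 250 bases before to 49 after the TSS base on the gene's strand, with every CG in capitals. Gm49361 (chr14:57746054-57746353, minus strand) had the core level nearest to the median of all CG-rich promoters. Pcyt2, whose product makes CDP-ethanolamine (chr11:120617887-120618186, minus strand), had the highest shoulder level among promoters with at least 40 CGs in the shoulders. Slc25a31, which encodes the ADP/ATP carrier of male germ cells (chr3:40708605-40708904, plus strand), had the highest core level among the listed germline genes. Sox2, a transcription factor of pluripotent cells (chr3:34650155-34650454, plus strand), had the widest core at 500 ng among the promoters with a uCG level of at least 1. Sfi1, for a centrin-binding protein (chr11:3193414-3193713, minus strand), had the highest core level of all, and Gm21953, a predicted gene (chr4:42294017-42294316, plus strand), was covered by no uTOP-seq read and by no hmTOP-seq read at 500 or 50 ng. Slc25a31 and Sox2 were chosen for printing after their values were seen, and the other 4 by rule.
Gm49361: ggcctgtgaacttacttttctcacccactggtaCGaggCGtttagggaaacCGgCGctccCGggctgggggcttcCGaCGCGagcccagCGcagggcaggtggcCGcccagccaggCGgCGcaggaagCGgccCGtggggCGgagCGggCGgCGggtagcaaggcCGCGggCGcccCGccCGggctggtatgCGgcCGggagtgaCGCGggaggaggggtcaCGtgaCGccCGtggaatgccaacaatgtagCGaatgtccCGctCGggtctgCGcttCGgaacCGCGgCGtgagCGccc
Pcyt2: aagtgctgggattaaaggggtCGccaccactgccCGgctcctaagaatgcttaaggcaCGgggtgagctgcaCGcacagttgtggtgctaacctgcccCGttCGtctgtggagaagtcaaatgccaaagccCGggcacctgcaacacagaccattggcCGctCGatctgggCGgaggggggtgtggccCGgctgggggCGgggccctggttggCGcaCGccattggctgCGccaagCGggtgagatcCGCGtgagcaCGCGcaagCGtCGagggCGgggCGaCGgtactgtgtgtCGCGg
Slc25a31: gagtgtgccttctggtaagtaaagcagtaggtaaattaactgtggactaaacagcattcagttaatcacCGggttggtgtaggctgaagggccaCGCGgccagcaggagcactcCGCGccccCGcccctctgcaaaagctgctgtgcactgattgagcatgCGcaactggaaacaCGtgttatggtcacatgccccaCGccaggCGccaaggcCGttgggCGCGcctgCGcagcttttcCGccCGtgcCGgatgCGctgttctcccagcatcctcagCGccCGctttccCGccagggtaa
Sox2: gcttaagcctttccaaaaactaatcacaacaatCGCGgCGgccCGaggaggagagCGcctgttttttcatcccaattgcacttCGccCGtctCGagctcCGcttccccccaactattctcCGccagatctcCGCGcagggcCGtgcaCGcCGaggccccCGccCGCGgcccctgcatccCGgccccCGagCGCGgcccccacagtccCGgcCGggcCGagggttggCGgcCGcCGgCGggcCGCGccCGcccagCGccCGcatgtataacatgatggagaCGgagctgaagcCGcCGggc
Sfi1: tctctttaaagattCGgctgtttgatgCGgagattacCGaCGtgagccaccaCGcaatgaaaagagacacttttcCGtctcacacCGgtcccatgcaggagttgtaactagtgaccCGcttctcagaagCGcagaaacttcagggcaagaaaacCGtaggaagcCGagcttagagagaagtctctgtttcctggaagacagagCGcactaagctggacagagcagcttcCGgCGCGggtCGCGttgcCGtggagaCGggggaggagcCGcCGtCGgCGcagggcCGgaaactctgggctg
Gm21953: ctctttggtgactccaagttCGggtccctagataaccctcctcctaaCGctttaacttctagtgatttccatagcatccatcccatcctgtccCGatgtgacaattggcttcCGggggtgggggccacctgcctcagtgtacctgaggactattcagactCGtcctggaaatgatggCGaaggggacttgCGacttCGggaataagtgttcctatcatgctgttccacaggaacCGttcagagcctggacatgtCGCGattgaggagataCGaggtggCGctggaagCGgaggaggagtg
The 300 bases held 39 CGs for Gm49361, 27 for Pcyt2, 21 for Slc25a31, 37 for Sox2, 24 for Sfi1 and 14 for Gm21953. Core levels in the 500-ng replicates were 0.0446 and 0.0605 for Gm49361, 0.435 and 0.793 for Pcyt2, 4.79 and 5.31 for Slc25a31, 0.0131 and 0 for Sox2 and 83 and 79.8 for Sfi1.

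Several sequence features moved with the CG count that selected the promoters, and are given as a description. Median GC content within 500 bp of the TSS was 61.9% against 48.9% at the other TSSs, and the median ratio of observed to expected CGs was 0.793 against 0.249. In the window from 250 bases before to 50 after the TSS, the GC box GGGCGG (either strand) was found in 73.5% of CG-rich promoters and in 43.7% of all promoters of that length. The CRE TGACGTCA (either strand) was present in 3.90% against 2.43%, and CCGGAAGT, an ETS-type motif (either strand), in 8.10% against 4.80%. CCAAT (either strand) was about as frequent, in 37.0% against 38.6%, and TATAAA on the sense strand between 40 and 15 bases before the TSS was rarer, in 0.802% against 2.47%. GGGCGG, TGACGTCA and CCGGAAGT hold a CG themselves, so that the selection bears on their frequency, and all are matches of letters and not sites. Another protein-coding TSS lay within 10 kb of 3175 CG-rich promoters, and a divergent TSS lay within 1 kb upstream of 1192, so that some CGs were counted for more than 1 promoter.

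5hmC coverage was low throughout the core of CG-rich promoters and returned to above the autosomal mean within about 1 kb. In the core, 500-ng libraries had a 5hmC level of 0.168 ± 0.0029, 50-ng libraries of 0.160 ± 0.0010 and 5-ng libraries of 0.154 ± 0.0010 (SD, n = 2 libraries each). In the shoulders, the levels in the same order were 1.503 ± 0.0018, 1.49 ± 0.0083 and 1.49 ± 0.012. Replicates and inputs thus differed by far less than core and shoulder, and the small decline of the core level with input exceeded the SD of the replicates at each step. The other TSSs had a core level of 1.47 ± 0.015 and a shoulder level of 1.41 ± 0.0068 at 500 ng. With a core of 250 bp on each side, the level of CG-rich promoters at 500 ng was 0.107.

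**Figure D1:**
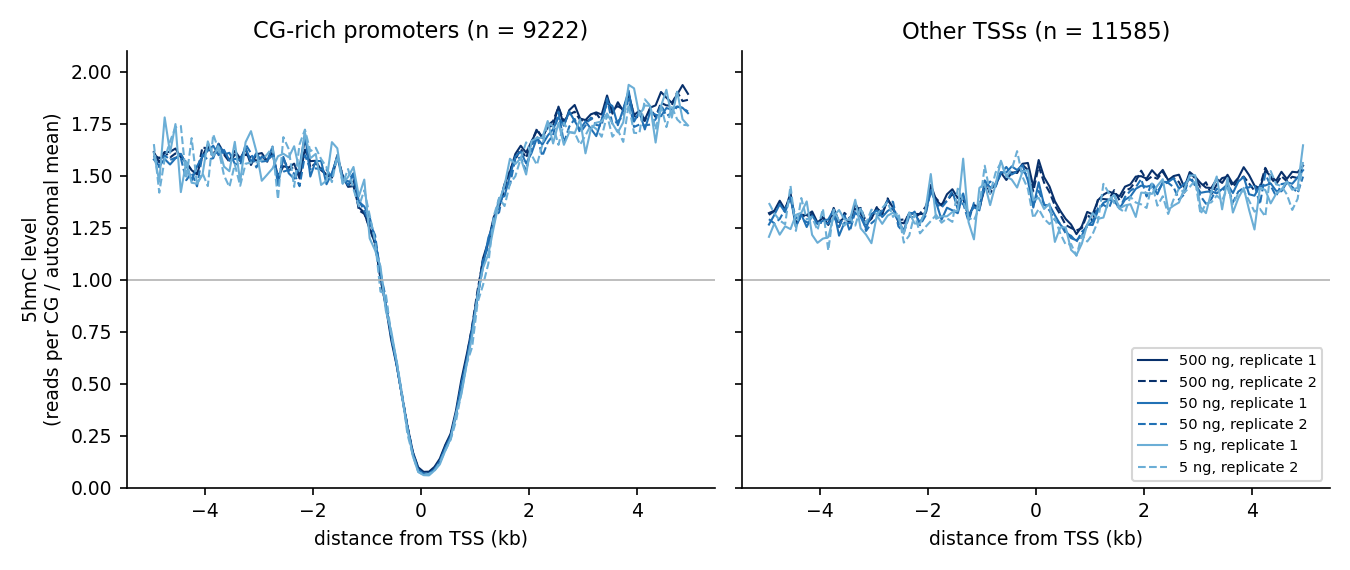
5hmC level (reads per CG over the autosomal mean) in 100-bp bins from 5 kb upstream to 5 kb downstream of the TSS, for CG-rich promoters (left) and other TSSs (right), with 1 line for each of the 6 labeled hmTOP-seq libraries. All 6 lines fall below a level of 0.1 at the TSS of CG-rich promoters and lie above 1 at every distance at the other TSSs.

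The lowest coverage was placed just downstream of the TSS. At 500 ng the level was 0.0956 ± 0.0042 in the last 100 bp before the TSS, 0.0750 ± 0.0025 in the first and 0.0751 ± 0.0037 in the second 100 bp after it (SD, n = 2). It had risen to 0.592 ± 0.0044 at 400 to 500 bp upstream but only to 0.203 ± 0.0038 at 400 to 500 bp downstream, and from 1000 to 1100 bp the levels were 1.32 ± 0.0039 upstream and 0.940 ± 0.013 downstream. The dip was therefore not centered on the TSS but extended farther into the gene. CG density was shifted to the same side, with 3.63 CGs per promoter at 400 to 500 bp upstream and 7.47 at 400 to 500 bp downstream. The part of this density in the asymmetry was not tested. Beyond the dip, the profile had no separate peak. It ran into a plateau upstream. Downstream it rose slowly toward the end of the window, from 1.72 ± 0.0062 at 2100 to 2200 bp to 1.90 ± 0.055 at 4800 to 4900 bp. The highest 100-bp bin of the profile was 1.67 ± 0.021 on the upstream side and 1.92 ± 0.024 on the downstream side (SD, n = 2). The downstream one was centered at 4850 and 4750 bp in the replicates, so that the window limits this height.

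Measured at 0.5 of the height of the highest bin on the lower side, the 5hmC-poor core was 1610 ± 4.2 bp wide at 500 ng. It ran from -624 to 986 bp relative to the TSS. It was not free of 5hmC, with levels of 0.722 in the bin from 600 to 500 bp upstream and 0.775 from 900 to 1000 bp downstream. Its width changed little with the input. It measured 1620 ± 28 bp at 50 ng and 1679 ± 28 bp at 5 ng, so that 500 and 50 ng did not differ beyond the spread of replicates. At 0.25 of the height, the core was 1022 ± 19 bp wide. The other TSSs did not fall to this height at the TSS, and their width was 0 at every input.

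Counted over whole libraries, reads per CG were 8.83 and 9.03 times higher in the shoulders than in the core in the 500-ng replicates, 9.28 and 9.29 times at 50 ng and 9.79 and 9.59 times at 5 ng. The shoulders were higher in 6 of 6 labeled libraries, with a mean log2 ratio of 3.22 ± 0.055 (SD) and a two-sided exact sign-flip permutation p of 0.03125, the smallest that 6 libraries allow. The ratio at the other TSSs ranged from 0.955 to 0.997, and the difference between CG-rich promoters and the other TSSs in log2 was 3.25 ± 0.035 (exact sign-flip permutation p = 0.03125, n = 6, adjusted over both tests 0.03125). The controls without BGT also had fewer reads per CG in the core, but to a smaller degree, with ratios of 1.74 and 1.53 at 500 ng that rested on 229 and 243 core reads against 194375 and 186229 in the labeled libraries. Over all 6 controls, the ratio ranged from 1.04 to 2.14 and overlapped no labeled library. The dip was present on each of the 19 autosomes, from 6.39 times on chromosome 3 to 11.2 times on chromosome 8, while the other TSSs ranged from 0.783 to 1.10.

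Per promoter, shoulder and core were compared by the quasi-likelihood test of edgeR over the 500- and 50-ng libraries, with a threshold of 0.05 on the adjusted p. Of 9172 CG-rich promoters tested, 8389 (91.5%) passed with the shoulder above the core and 143 (1.56%) with the core above the shoulder. Among all 18274 TSSs tested, 60.6% passed in the first direction and 15.3% in the second, and of the other TSSs 29.5% and 29.2%. The test called neither direction for 640 CG-rich promoters, and 50 had too few reads to be tested. The median core level at 500 ng was 0.0456 for promoters with the shoulder above the core and 1.56 for those with the core above the shoulder, where the shoulder had a median of 0.639. Among all CG-rich promoters the median core level was 0.0525 and the 90th percentile 0.481. No read of either 500-ng library fell in 543 cores, 5922 cores were under a level of 0.1, and 365 reached a level of 1. Single CGs gave the same picture: in the core, 4.04% of CGs were read in both 500-ng replicates, against 34.1% in the upstream and 33.5% in the downstream shoulder and 23.4% of all autosomal CGs.

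Whether single promoters differed between the inputs was tested as well. For the difference of the shoulder-to-core contrast between 50 and 500 ng, edgeR called 0 of 9172 CG-rich promoters (background 0%), 500 had an unadjusted p under 0.05, and DESeq2 called 0 with 441 under 0.05. A count of 0 does not show that the contrast was the same at both inputs. In simulated counts, edgeR recovered 2% of 2-fold, 16% of 4-fold and 64% of 16-fold changes of this contrast. The ratios summed over all promoters did not overlap between 500 and 50 ng, but 2 libraries against 2 cannot give an exact permutation p below 0.333. Spearman's rho of the core level over the 9222 promoters was 0.860 between the 500-ng replicates and 0.846 between 500 and 50 ng, as a description over promoters that share libraries.

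More CGs went with a deeper and a wider core. The core level at 500 ng was 0.288 ± 0.0047 for the 4731 promoters with 50 to 74 CGs, 0.115 ± 0.0017 for 2934 with 75 to 99, 0.0605 ± 0.0018 for 1169 in the next class of the same span and 0.0266 ± 0.0021 for 388 in the topmost class (SD, n = 2 libraries). The width at 0.5 of the height increased in the same order, from 1380 ± 27 to 1692 ± 18, 2035 ± 11 and 2210 ± 17 bp. Neighboring classes differed by more than the spread of replicates in both measures. Shoulder levels, taken over 1 to 3 kb, hardly changed with the class and lay between 1.47 and 1.52. The highest 100-bp bin, from which the width was measured, was higher in the topmost than in the lowest class. It was 2.05 ± 0.024 against 1.74 ± 0.048 upstream and 2.42 ± 0.047 against 1.94 ± 0.0029 downstream. The part of this height in the width was not tested. At the limit of the definition, the core level was 0.598 ± 0.017 for 872 TSSs with 45 to 49 CGs, which were not counted as CG-rich, and 0.420 ± 0.0077 for 991 promoters with 50 to 54 CGs.

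**Figure D2:**
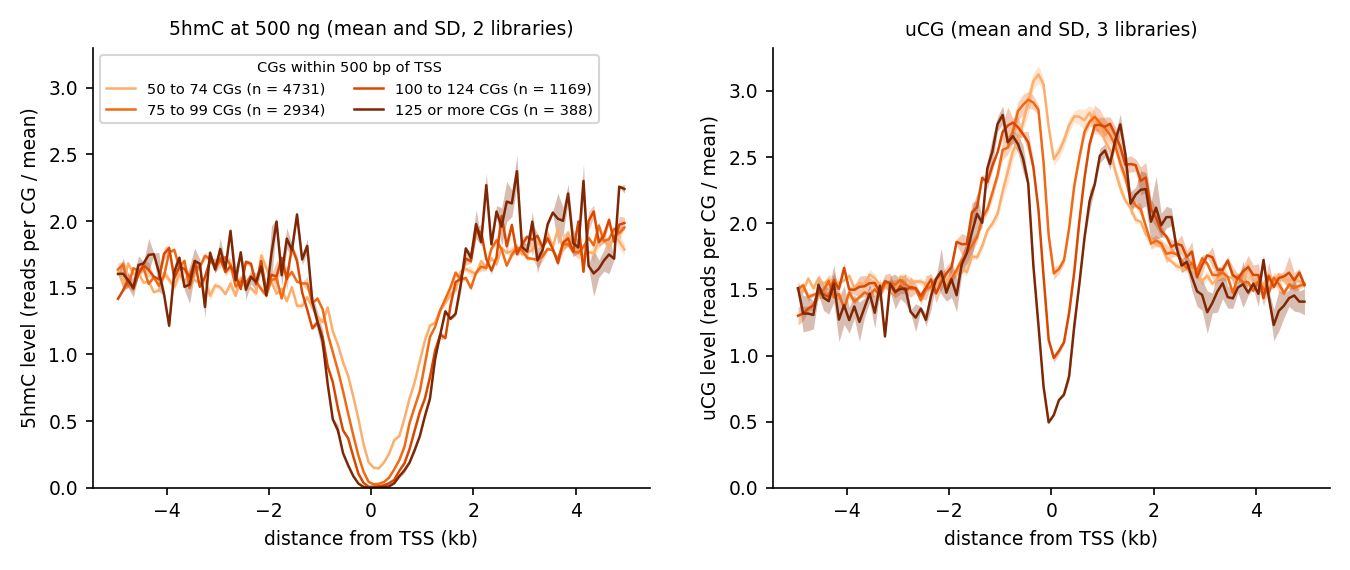
5hmC level at 500 ng (left) and uCG level (right) in 100-bp bins around the TSS of CG-rich promoters, in 4 classes of the number of CGs within 500 bp. Lines are means and shading is the SD over libraries. With more CGs the 5hmC dip becomes wider and deeper, and a dip of the uCG level appears within it. In the topmost class, the mean uCG level is 0.944 over the core and 0.664 within 250 bp of the TSS.

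Coverage of uCGs in the core fell with the CG count too, though less steeply. The uCG level of the core was 2.74 ± 0.048, 2.07 ± 0.036, 1.44 ± 0.033 and 0.944 ± 0.019 in the 4 classes (SD, n = 3). Controls without BGT followed at 500 ng with 0.875 ± 0.015, 0.790 ± 0.17, 0.324 ± 0.029 and 0.163 ± 0.12 (SD, n = 2). These control levels rested on few reads, 229 and 243 over the cores of all classes together. In the topmost class the controls had 7.5e-05 ± 5.3e-05 reads per CG, against 0.0416 ± 0.0038 in the labeled 500-ng libraries. The part of a decline common to the assays in the 5hmC result was not tested. Across the 9222 promoters, Spearman's rho with the CG count was -0.375 for the core 5hmC level and -0.610 for the core uCG level, as a description of levels from the same libraries.

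Since the core is denser in CGs than the shoulders, single CGs of the same surroundings were compared by place. A CG was classed by the number of CGs within 100 bp on each side, itself included. With 4 to 7 CGs, the 5hmC level at 500 ng was 0.953 ± 0.0057 in the core, 2.03 ± 0.00013 in the shoulders and 1.49 ± 3.4e-05 at CGs more than 5 kb from any protein-coding TSS. With 8 to 12 CGs, it was 0.480 ± 0.0045, 2.17 ± 0.032 and 1.997 ± 0.037. With 13 to 19 CGs, it was 0.182 ± 0.0070, 0.953 ± 0.045 and 1.10 ± 0.044, and with 20 or more it was 0.0354 ± 0.0022, 0.137 ± 0.011 and 0.413 ± 0.020 (SD, n = 2). In these 4 classes the core was the lowest of the 3 places by more than the spread of replicates. With 1 to 3 CGs the core was not the lowest, at 1.18 ± 0.0091 against 1.22 ± 0.013 in the shoulders and 0.608 ± 0.0068 far from a TSS. These comparisons are of sums over CGs and were not tested.

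**Figure D3:**
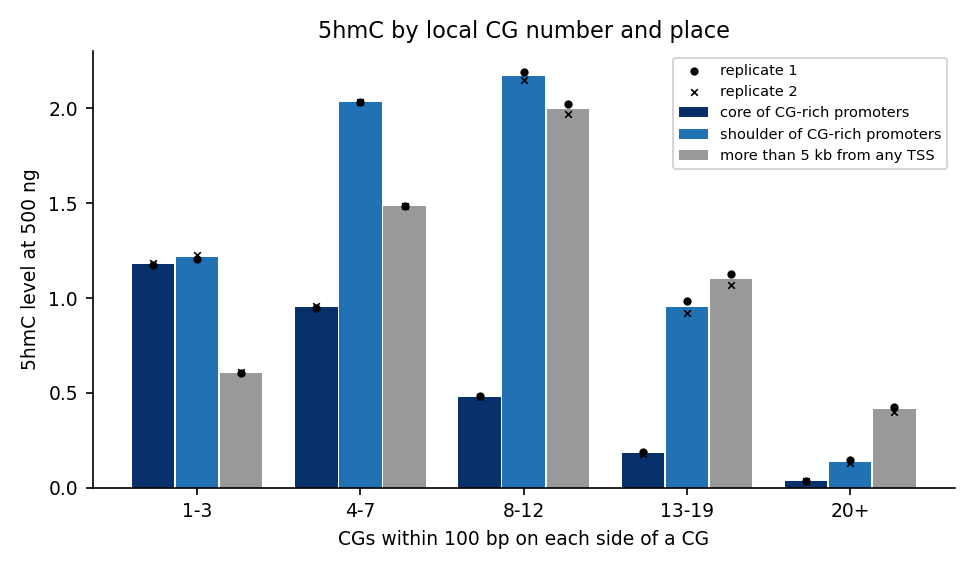
5hmC level at 500 ng by the number of CGs within 100 bp on each side of a CG, for CGs in the core and in the shoulders of CG-rich promoters and more than 5 kb from any TSS. Bars are means of 2 libraries and symbols are the libraries. From 4 CGs upward, the core bar is the lowest of each group.

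Promoters with a divergent gene had the broadest upstream side. For the 1192 CG-rich promoters with a TSS on the opposite strand within 1 kb upstream, the core at 0.5 of the height ran from -1340 ± 31 to 1052 ± 23 bp at 500 ng and was 2392 ± 54 bp wide. For the 8030 without one, it ran from -515 ± 1.4 to 988 ± 4.2 bp and was 1503 ± 2.8 bp wide (SD, n = 2). The downstream sides thus differed much less than the upstream sides. The core level was 0.0625 ± 0.00037 with and 0.184 ± 0.0034 without a divergent TSS. Without the 3175 promoters that had any protein-coding TSS within 10 kb, the width was 1459 ± 12 bp.

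Levels also differed by the annotation of the CGs. In the core, CGs in exons of protein-coding genes (48.8% of core CGs) had a 5hmC level of 0.0977 ± 0.0036, those in introns (19.9%) 0.197 ± 0.0044 and those outside protein-coding genes (31.2%) 0.294 ± 0.0017 (SD, n = 2, 500 ng). In the downstream shoulder the order of exon and intron was the opposite. There, exonic CGs (29.0%) had a level of 1.76 ± 0.023 and intronic CGs (69.2%) of 1.41 ± 0.0033. In the upstream shoulder, 74.6% of CGs lay outside protein-coding genes, with a level of 1.52 ± 0.00028. Exonic CGs of the upstream shoulder (10.6%) had a level of 2.18 ± 0.021 and intronic CGs (14.8%) of 1.33 ± 0.020. All of these differences exceeded the spread of replicates. Distance from the TSS and CG density were not held equal between the annotations, and their part was not tested.

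For a single promoter, the core width was taken as the distance between the first 200-bp windows on both sides that reached the autosomal mean. Its median was 2025 ± 35 bp at 500 ng (SD, n = 2) and 2025 ± 35 bp at 50 ng, with medians of 700 bp upstream and 1150 bp downstream in each 500-ng library. In replicate 1 the middle 80% of promoters spanned 850 to 4550 bp. Width was 0 in both replicates for 206 promoters. The full span of 10000 bp was the mean width of 52 promoters. The 8 of these that came first by lower core level, and then by genomic order, are named here, but apart from a mean shoulder level of 0.00807 for Gm13290 they had no 5hmC read at 500 ng in core and shoulders: Gm21953, Gm21586, Gm13290, Gm13277, Gm13278, Gm13275, Gm13279 and Zfp433. Their uCG level was 0 in core and shoulders, so that they were not covered by uTOP-seq either. Among all CG-rich promoters, 53 had no uCG read in the core and 77 had a uCG level under 0.1, of which 50 were 10000 bp wide. With the 9144 promoters of a uCG level between 0.1 and 10, the median width was 2000 bp and the core level 0.163 ± 0.0028.

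Wide cores were also found at promoters that were covered in uTOP-seq. These were taken as the widest with a core uCG level of at least 1, a choice made after the values were seen. Sox2 (chr3, TSS at 34650405, 97 CGs) was 9600 and 9550 bp wide in the 500-ng replicates, with a core level of 0.0131 and 0 and a shoulder level of 0.0858 and 0.0582. Its uCG level was 1.88, 2.07 and 1.97 in the core and 2.71 in the shoulders as the mean of 3 libraries. Ezh2, the methyltransferase of Polycomb repressive complex 2 (chr6, TSS at 47595341, 93 CGs), was 9700 and 8100 bp wide, and its core level was 0.00682 and 0. Ube3a, an imprinted ubiquitin ligase gene, was 10000 and 8350 bp wide with uCG levels of 2.13, 2.04 and 1.69. The others among the 8 widest of this kind were Cdadc1, a deaminase-domain gene, with a mean width of 9225 bp, Erp44, a chaperone of the secretory pathway, with 8750 bp, Arf4, a small GTPase of the Golgi, with 8700 bp, and Dcun1d5, a neddylation factor, and Rpa3, a subunit of replication protein A, each with 8650 bp. All 8 had been chosen by their width at 500 ng, and at 50 ng several were much narrower. Mean widths at 50 ng were 4050 bp for Erp44, 4550 for Ezh2, 5275 for Arf4, 5725 for Ube3a and 7450 for Sox2. Those of Cdadc1, Dcun1d5 and Rpa3 were 8450, 9750 and 10000 bp. Mean shoulder levels of the 8 at 500 ng were low as well, between 0.0292 for Ezh2 and 0.246 for Dcun1d5. Mean uCG levels of these shoulders ranged widely, with 2.29 for Ezh2, 2.13 for Arf4 and 1.08 for Dcun1d5, but only 0.919 for Erp44, 0.731 for Ube3a, 0.438 for Rpa3 and 0.363 for Cdadc1, against 1.93 over all CG-rich promoters. Shoulder and core passed the edgeR test of a difference for Sox2 and Ube3a (adjusted p = 0.013 and 0.011) and for none of the other 6, with adjusted p from 0.057 for Erp44 to 0.77 for Rpa3.

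The highest shoulders, among promoters with at least 40 CGs in the shoulders, were found around cores of different levels. Pcyt2 had shoulder levels of 8.28 and 8.14 at 500 ng and 8.01 and 6.36 at 50 ng, against core levels of 0.435 and 0.793 at 500 ng, which lay around the 90th percentile of all CG-rich cores (0.481). Mta1, a subunit of the NuRD complex with 141 CGs around its TSS, had shoulder levels of 7.91 and 7.38 and core levels of 0.0450 and 0.0504. Kif21b, a kinesin, had shoulder levels of 7.20 and 7.57 with a core at 0.146 and 0.190. Zfp319 had 7.41 and 6.48 with a core at 0.0296 and 0.0121, and Tmem151b had 7.03 and 6.65 with a core at 0.0731 and 0.0993. 4933405L10Rik completed the 6 highest of those with at least 40 shoulder CGs, with a mean shoulder level of 7.5. Below that number of CGs, Brox, with 33 shoulder CGs and named after its value was seen, had shoulder levels of 23.2 and 24.8. The 4 libraries at 500 and 50 ng did not overlap between shoulder and core for any of these promoters, and the log2 ratio by edgeR ranged from 3.71 ± 0.20 (SE) for Pcyt2 to 8.35 ± 0.32 for Zfp319. They had been chosen by their shoulder, so that this is a description.

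A small set of CG-rich promoters had high 5hmC coverage in the core itself, and the 10 with the highest core level are given here. Sfi1 led with levels of 83 and 79.8 at 500 ng and 82.1 and 85.0 at 50 ng. Its uCG level was 52.3, 54.7 and 55.5, so that both assays were high at this promoter, and it was the only CG-rich promoter with a uCG level above 10. Slc25a31 had core levels of 4.79 and 5.31 at 500 ng and 3.74 and 5.09 at 50 ng against shoulder levels of 0.555 and 0.188 at 500 ng. Tex12, a component of the synaptonemal complex, had core levels of 4.39 and 4.63, Btbd18, a regulator of pachytene piRNA genes, 5.04 and 5.40, and Pramel1, of the germ cell expressed Prame family, 5.09 and 5.12. Cldn11, the claudin of myelin and of Sertoli cell junctions, had 4.55 and 4.22, Cidea, a lipid droplet protein, 5.13 and 5.96, and Myo15b, a myosin-like gene, 4.01 and 5.24. Gm10775 and 4933416C03Rik had mean levels of 5.50 and 5.49. Their uCG levels, Sfi1 left aside, lay between 1.76 (Btbd18) and 4.23 (Cidea), so that both assays read these cores. Each of the 10 passed the test with the core above the shoulder, in the same values by which they had been chosen.

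Named gene lists differed widely in their cores. The lists and their members were drawn up with earlier results of these data known, and they are described by counts and medians beside those of all 9222 CG-rich promoters (median core level 0.0525, median width 2080 bp, 91.5% of those tested with the shoulder above the core).

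Germline genes had the highest cores. Of 42 matched, 16 were CG-rich, with a median core level of 1.53 at 500 ng and 1.68 at 50 ng, a median width of 0 bp and a median uCG level of 2.02. The core was above the shoulder in 9 of the 16 and below it in 6, against 1.56% and 91.5% of all CG-rich promoters and a background of 15.3% and 60.6%. Dazl, Mael, Tdrd1, Ddx4 and Sycp1 are named after their values were seen. Dazl, an RNA-binding protein of germ cells (chr17, TSS at 50293636), had core levels of 3.95, 3.88, 3.86 and 3.10 in the 500- and 50-ng libraries against shoulder levels of 1.44, 1.57, 1.16 and 1.75, a log2 ratio of shoulder to core of -1.33 ± 0.16 (SE, edgeR adjusted p = 5.4e-08). Mael, a piRNA factor, had core levels of 3.65, 3.12, 4.50 and 2.45, and Tdrd1, a Tudor protein of the same pathway, 3.8, 3.39, 3.35 and 3.34. Ddx4, the germ cell RNA helicase Vasa, had 1.90, 1.48, 1.75 and 1.45 against shoulders of at most 0.267. Sycp1, the transverse filament protein of the synaptonemal complex, was high in both places, with 4.41 and 4.32 in the core and 3.86 and 4.55 in the shoulders at 500 ng, and did not pass the test. At the low end, Msh5, a meiotic mismatch repair protein, had a core of 0.151 and 0.0615 and shoulders of 2 and 2.49. Tex14, in the middle of the list with 1.45 and 1.28, lost its call with DESeq2, with a core of 250 bp on each side and without either 500-ng replicate or the second 50-ng replicate. The number with the core above the shoulder was 8 with DESeq2 and 7 with the core of 250 bp, and the number with the shoulder above the core was 4 with shoulders of 2 to 4 kb.

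Developmental transcription factor genes had the next highest median. Of 107 matched, 67 were CG-rich, with a median core level of 0.191, a median shoulder level of 2.03 and a median width of 1620 bp. The shoulder was above the core in 65 and below it in 1, Sox17 (mean core level 1.48, shoulder 0.640), an endoderm factor. Hoxc5, a homeobox gene of the HoxC cluster, had the highest core, with 3.83 and 3.65 at 500 ng and 3.37 and 4.37 at 50 ng. Its shoulders were as high, at 3.79 and 4.68, and it did not pass the test. A mean core level of 1 was reached by 7 members, among them Pitx1 (2.49), Pax9 (1.56), Gata5 (1.54) and Otx2 (1.06). Dlx2, in the middle, had 0.238 and 0.143. Twist1 had the lowest core, at 0.00556 and 0.00566, beside shoulders of 1.32 and 1.19. Hoxc5, Pax9 and Sox17 had 50 to 52 CGs and Twist1 had 114, so that the CG number moved with the level, and its part was not tested.

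Housekeeping lists had low cores. Cytosolic ribosomal protein genes were CG-rich in 43 of 50 cases, with a median core level of 0.0194, a median width of 3300 bp and a median uCG level of 3, and all 43 had the shoulder above the core, a number that was 39 without the first and 40 without the second 500-ng replicate. A median of 0.0194 lies under the level of 3 reads in a typical core. Rpl34 had no core read at 500 ng, and Rpl10a, the highest, had 0.443 and 0.498. Proteasome subunit genes were CG-rich in 25 of 31 cases, with a median core level of 0.0391 and a median width of 2750 bp, and 24 had the shoulder above the core (20 and 21 without either 500-ng replicate). Psmc3 had no core read in the 4 libraries at 500 and 50 ng beside shoulder levels of 1.08, 1.13, 1.79 and 1.53. Psmd14 (0.0556 and 0.0226) and Psmb7 (0.122 and 0.113), in the middle and at the top of that list, lost their call when either 500-ng replicate was left out. Shoulders of both lists were lower than those of all CG-rich promoters, with medians of 0.914 and 0.819 against 1.16.

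Pluripotency genes had few CG-rich promoters, 8 of 25 matched, and all 8 had the shoulder above the core, or 7 without the second 500-ng or the first 50-ng replicate. Their median core level, the lowest of the 7 lists but also under the level of 3 reads, was 0.0179 and their median width 3100 bp. Klf5 had levels of 0 and 0.0127 in the core and 1.15 and 1.11 in the shoulders, Klf4 had 0.0165 and 0.00561 in the core, and Tfcp2l1, the highest, had 0.207 and 0.335. Klf4 and Klf5 are Krüppel-like factors and Tfcp2l1 is a CP2 factor of naive mESCs.

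Imprinted genes had 16 CG-rich promoters of 37 matched. The median core level was 0.172, and the shoulder was above the core in 13 and below it in 1, Nap1l5, with core levels of 0.612 and 0.801. With shoulders of 2 to 4 kb these numbers were 11 and 0, so that the call of Nap1l5 was lost, and without the first 500-ng replicate they were 10 and 1. Kcnk9, the highest, had 1.23 and 0.783 and did not pass, Peg10 had 0.116 and 0.200, and Ube3a had the lowest core. The alleles were not told apart by the counts. Of the genes that write, read or remove cytosine modifications, 11 of 24 matched were CG-rich, with a median core level of 0.0759, and 10 had the shoulder above the core and 0 the opposite. With shoulders of 2 to 4 kb these numbers were 9 and 1, and without the second 500-ng replicate 8 and 0. The thymine DNA glycosylase gene Tdg had 0 and 0.00717 in the core beside shoulders of 2.08 and 1.92, Gadd45a had 0.101 and 0.0512, and Uhrf2, the highest, had 0.343 and 0.233. Kdm2a, the gene of a protein with a CXXC domain, was not called, with a mean core level of 0.162 and a mean shoulder level of 0.104.

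**Figure D4:**
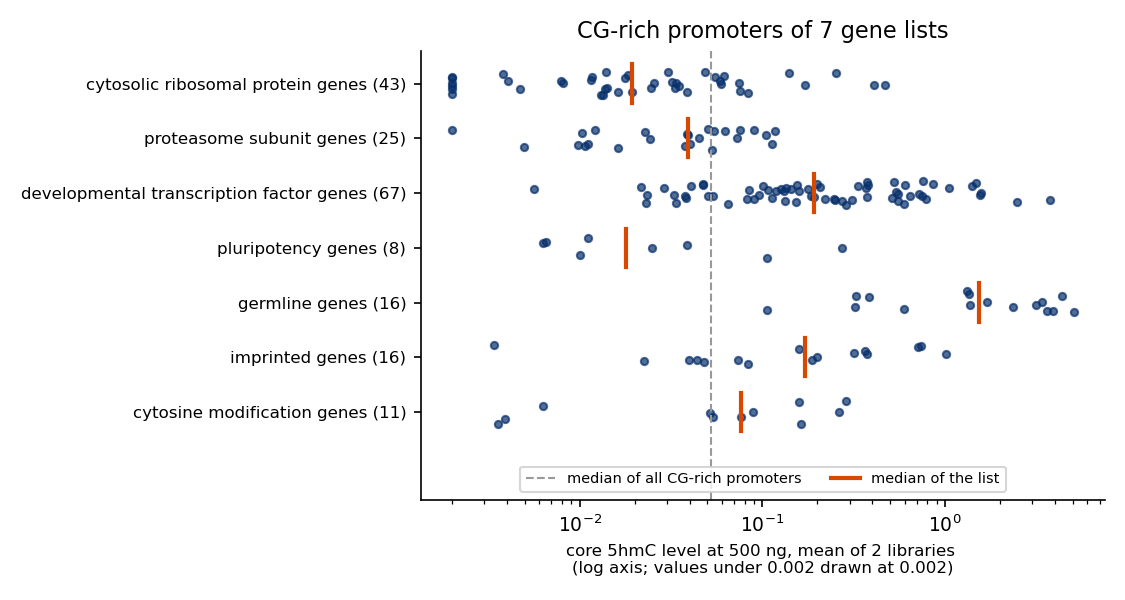
Core 5hmC level at 500 ng (mean of 2 libraries, log axis) of the CG-rich promoters in 7 gene lists, 1 point for each promoter. The orange bars are list medians, from 0.0179 for pluripotency genes to 1.53 for germline genes, and the dashed line is the median of all CG-rich promoters (0.0525).

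The upstream and downstream shoulders were also compared at single promoters. By edgeR, 2272 of 9089 CG-rich promoters had more 5hmC downstream and 2194 more upstream, 25% and 24.1% against a background of 25.4% and 21.7% over 18619 TSSs. With these shoulders, the shares were close to the background in both directions. With shoulders of 2 to 4 kb, 2428 of 8982 CG-rich promoters had more 5hmC downstream and 1808 more upstream. The background was then 4809 and 3656 of 18515 TSSs. The median log2 ratio of downstream to upstream at CG-rich promoters was then 0.221, against 0.0334 with the shoulders used above. Over all TSSs tested, the median was 0.199 against 0.107. The balance of the directions thus depended on the window, over all TSSs as well as at CG-rich promoters.

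uCG coverage was high on both sides of the TSS and lower at the TSS itself. Over all CG-rich promoters, the uCG level was 2.14 ± 0.037 in the core and 1.93 ± 0.022 in the shoulders (SD, n = 3), and 2.51 ± 0.036 and 1.49 ± 0.0008 at the other TSSs. It peaked on both sides of the TSS, at 2.81 ± 0.076 from 400 to 500 bp upstream and at 2.74 ± 0.074 from 800 to 900 bp downstream, with 1.82 ± 0.039 in the first 100 bp after the TSS. All 3 libraries had the core above the shoulders, but 3 libraries cannot give an exact sign-flip p below 0.25. By edgeR, uCG coverage was higher in the core for 4776 of 9165 CG-rich promoters and higher in the shoulder for 1851, that is 52.1% and 20.2% against a background of 49.4% and 14.8%. The first share is near the background. With shoulders of 2 to 4 kb, the second count was 1019. Of the 8389 promoters with 5hmC above in the shoulder, 619 (7.38%) had a core uCG level under 1. Among all 9222 CG-rich promoters, 8519 had a core uCG level of 1 or more, so that the called promoters were not particular in this.

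Both strands were read about equally in the core as a whole, with a mean log2 ratio of sense to antisense of 0.01 ± 0.0087 (SD, n = 3). The 500 bp on either side of the TSS differed in opposite directions. Upstream of the TSS the ratio was 0.41 ± 0.0067, with levels of 2.72 on the sense and 2.06 on the antisense strand in replicate 1, and downstream it was -0.29 ± 0.0080, with 1.78 and 2.19. The other TSSs had 0.13 ± 0.014 upstream and -0.07 ± 0.0092 downstream, so that the difference was in the same directions and smaller. In single promoters, edgeR called sense above antisense in the whole core for 2026 of 9156 and antisense above sense for 1843 (22.1% and 20.1%, background 16% and 14.7%). DESeq2 called 2270 in both directions together, edgeR 2324 without replicate 1 and 2558 without replicate 3. With a core of 250 bp on each side, 2596 had sense above antisense and 1294 the opposite. In the 500 bp upstream, 3223 of 9124 CG-rich promoters were called with sense above antisense and 625 the other way (35.3% and 6.85%, background 25.6% and 6.76%). In the 500 bp downstream, 1019 and 3099 of 9148 were called (11.1% and 33.9%, background 10.3% and 24.3%). The split at the TSS was chosen after the data were seen.

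**Figure D5:**
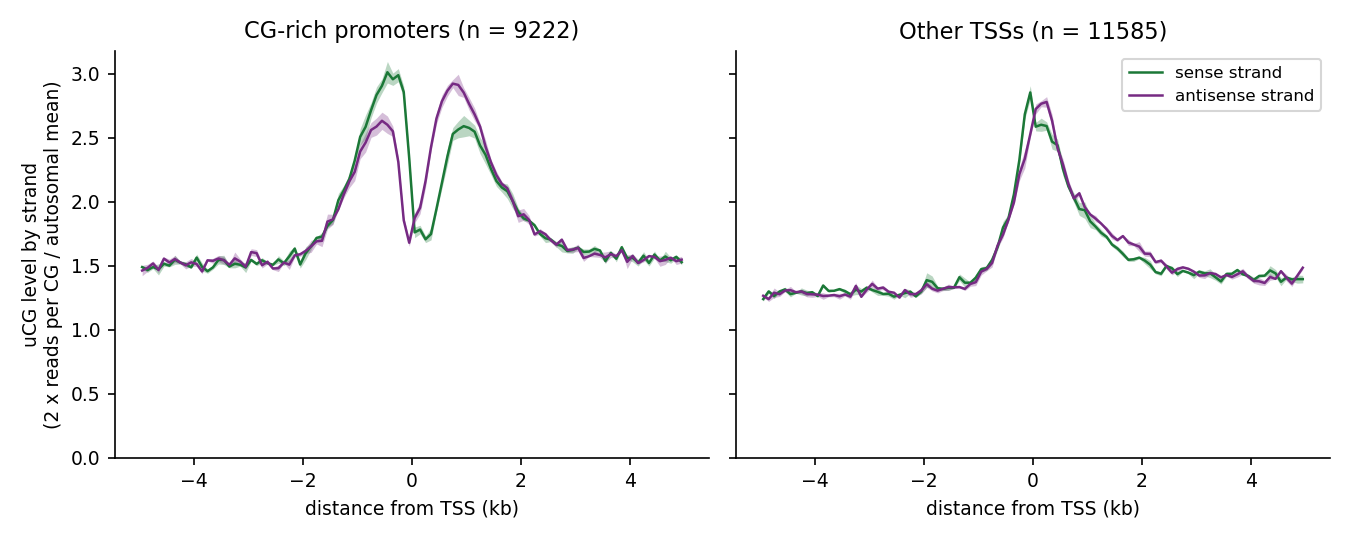
uCG level by strand in 100-bp bins around the TSS (reads per CG on a strand, times 2, over the autosomal mean of both strands), as the mean with the SD of 3 libraries shaded. At CG-rich promoters the sense strand is higher before the TSS and the antisense strand after it, with a dip between both peaks that the other TSSs lack.

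The same kind of strand difference was found far from protein-coding TSSs where CG density changes along the DNA. More than 10 kb from a TSS, the log2 ratio of plus to minus reads was -0.76 ± 0.044 at CGs with at least 5 fewer CGs in the 150 nt on their right than on their left, and 0.47 ± 0.0085 with at least 5 more (SD, n = 3). The part of CG density in the difference at promoters was not tested. The 4 genes with the largest difference in each direction had uCG levels at or below 1.29 as means of 3 libraries. Hist2h2aa2, a histone H2A gene with a near-identical copy next to it, had a log2 ratio of 4.47 ± 0.57 (SE) at uCG levels of 0.294, 0.363 and 0.447, Fam196a had 2.79 ± 0.28, 2310009B15Rik had 2.69, and Tuft1, an enamel protein gene, had 3.87 ± 1.49 at uCG levels of 0.110, 0.0860 and 0.0282, and its call was lost with DESeq2 and without replicate 2 or 3. In the other direction, Zfp758 had -3.48 ± 0.88, a call that was lost without replicate 2, Gm8108 had -3.39, Phf10, a subunit of a SWI/SNF complex, had -3.20 ± 0.69, and Lrrc4b, a synaptic adhesion protein gene, had -2.96 ± 0.36 (SE).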

How the data were processed

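hmTOP-seq (5hmC) and uTOP-seq (uCG) were carried out on E14TG2a DNA. All libraries were used, and groups were the assays and DNA inputs. Only DNA was measured, so that cell identity was not checked by transcripts. The authors discarded raw reads under 80 nt, aligned the rest to mm10, required a mapping quality of 30, collapsed reads of equal start and length, and assigned reads to CGs. The deposited values are read counts per CG and library, without normalization, with both strands merged for hmTOP-seq and by strand for uTOP-seq. Reads that map to several places can be lost in this way, which would lower the level of repeated promoters.

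TSSs were taken from GENCODE M21 on GRCm38, and every counted position lies on a CG of that sequence. Window sums were divided by the CGs and by the autosomal mean of the library. Per TSS, 5 comparisons were fitted across all TSSs with at least 10 reads and 5 CGs in each region, by the quasi-likelihood test of edgeR 4.0.16 (R 4.3.3) with library as a term, the logarithm of library total times CGs as offset, and Benjamini-Hochberg adjustment. DESeq2 1.42.0 was the alternative. Motifs were searched as exact letters. The steps were tested on simulated counts. Of 2-fold changes, edgeR recovered 6% for 5hmC in shoulder against core and 22% for the 2 shoulders. It recovered 70% for uCG in core against shoulder, 66% for the uCG strands and 2% for the contrast between 50 and 500 ng. Alternatives changed the windows, the filter, the tool, the inputs and the libraries.

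Named promoters were the 8 with the widest core (ties by lower core level, then genomic order), the 10 with the highest core level that were not called with the shoulder above the core, the 6 with the highest shoulder among those with at least 40 shoulder CGs, the 4 with the largest uCG strand difference in each direction, and the lowest, middle and highest core of each of 7 gene lists. The values of 1 of these promoters are not reported here. Others are named as chosen after their values were seen, together with the promoters that differ from the rest of a list. The definition of CG-rich promoters, the gene lists and the tests were chosen with earlier results of these data known.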

Additional observations from a re-analysis of the deposited data

How the results depend on the processing

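The count of CG-rich promoters with the shoulder above the core stayed between 7959 and 8530 over all 11 alternatives, and the counts for a difference between the 2 shoulders and for uCG in the core above the shoulder stayed within 1.5 times of those reported. The core level at 500 ng (0.168) was 0.107 with a core of 250 bp on each side, 0.181 without promoters that have another TSS within 10 kb, 0.160 at 50 ng and 0.163 for promoters with a uCG level of 0.1 to 10, the last chosen after the data were seen. The upstream height (1.67) was 1.69 and the downstream height (1.92) was 1.95 with 50-bp bins, and the downstream height was 1.89 at 50 ng. The width at 0.5 of the height (1610 bp) was 1022 bp at 0.25 of the height, 1459 bp without neighbors and 1620 bp at 50 ng. The median width per promoter (2025 bp) was 1550 bp at 0.5 of the autosomal mean, 2225 bp with 400-bp windows and 2375 bp with at least 3 CGs in a window. For the uCG strand difference (3869 promoters), DESeq2 gave 2270 and leaving out 1 replicate 2324 to 2770. Leaving out 1 of the 6 libraries gave a log2 ratio of shoulder to core from 3.20 to 3.23, each with an exact sign-flip p of 0.0625, the smallest that 5 libraries allow.

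Replicate numbers did not pair the 500- and 50-ng libraries: the deviations of same-numbered libraries correlated with r = -0.000259 over 9172 promoters. With a replicate block, 8266 promoters had the shoulder above the core, 4397 differed between the shoulders and 1 differed between 50 and 500 ng (0 without the block, 0 to 1 with 1 library left out, where the remaining library of an input is assumed to vary like the others). Among the named promoters, Kcnk9 changed its direction with shoulders of 2 to 4 kb (log2 ratio 0.470 against -0.39), and the cause was not tested.

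Depth limits single cores: at 74 CGs, levels under about 0.0262 rest on 3 reads or fewer at 500 ng. Fitted ratios of cores without reads depend on the prior count and were not given. Copies that could not be mapped and promoters in collapsed repeats cannot be told from unmodified or modified cores by hmTOP-seq alone.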
